A study of Mus musculus with 4 samples.

Results

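Metallothionein-high tumour cells were taken from single-cell libraries of MC38 tumours, a colon carcinoma cell line of the mouse, implanted into wild-type or FOXP3 humanized hosts. A cell was eligible with at least 5000 UMIs (unique molecular identifiers, 1 per captured transcript) and 0 UMIs over Ptprc, Cd3e, Cd3d, Cd3g, Trac, Trbc1 and Trbc2. Its score was the number of Mt1 and Mt2 UMIs per 10000 UMIs of the cell, and cells at or above the pooled 90th percentile, 166 per 10000, were the members. They numbered 1615 of 16143 eligible cells and of 18778 cells in all, with 706 of 6606 eligible cells in the wild-type and 909 of 9537 in the FOXP3 humanized library. The other 5900 and 8628 eligible cells served as the comparison.

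The mice were 10 weeks old, received no treatment and gave their tumours on day 20 after implantation. Both genotypes carried the same MC38 cell line. Each genotype had 1 cDNA library, so genotype, library and mouse cannot be told apart, and how many animals were pooled is not given in the sources used here. The cells were labelled as immune cells isolated on Percoll, yet the eligible cells carried almost no leukocyte transcripts, in part by the rule. The other libraries of the series, called oligo libraries, were not used here.

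Metallothioneins are small, cysteine-rich proteins that bind zinc and copper and buffer cadmium and other toxic metals. Their genes are switched on when free zinc activates the transcription factor MTF1, which binds short metal response elements in their promoters. Glucocorticoids, oxidants and low oxygen can raise them as well. In the mouse, Mt1 and Mt2 are expressed in most tissues, while Mt3 belongs mainly to the brain and Mt4 to stratified epithelium.

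The sequences around the start sites of the genes that chose the cells, and of Slc30a1, the plasma membrane zinc exporter that is also an MTF1 target, are shown because they hold the letters of the metal response element core. They run from 250 bases before to 50 bases after the RefSeq start on GRCm38.p6, 5′ to 3′ on the plus strand, at chr8:94178839-94179138 for Mt1, chr8:94172368-94172667 for Mt2 and chr1:191906531-191906830 for Slc30a1. Capitals mark each match to the core, searched as TGCACNC or TGCGCNC on both strands.

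Mt1: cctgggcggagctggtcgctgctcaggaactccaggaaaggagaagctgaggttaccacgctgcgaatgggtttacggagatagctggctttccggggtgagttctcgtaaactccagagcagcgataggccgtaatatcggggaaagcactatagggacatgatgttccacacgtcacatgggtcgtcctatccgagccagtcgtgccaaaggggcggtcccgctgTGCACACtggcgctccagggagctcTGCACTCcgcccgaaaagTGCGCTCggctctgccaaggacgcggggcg

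Mt2: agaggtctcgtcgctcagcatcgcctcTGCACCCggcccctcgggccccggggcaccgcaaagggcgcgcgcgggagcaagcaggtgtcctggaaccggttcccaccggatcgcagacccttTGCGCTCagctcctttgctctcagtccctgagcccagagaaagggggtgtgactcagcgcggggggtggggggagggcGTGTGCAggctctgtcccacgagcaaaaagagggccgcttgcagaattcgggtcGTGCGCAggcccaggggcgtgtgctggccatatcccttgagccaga

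Slc30a1: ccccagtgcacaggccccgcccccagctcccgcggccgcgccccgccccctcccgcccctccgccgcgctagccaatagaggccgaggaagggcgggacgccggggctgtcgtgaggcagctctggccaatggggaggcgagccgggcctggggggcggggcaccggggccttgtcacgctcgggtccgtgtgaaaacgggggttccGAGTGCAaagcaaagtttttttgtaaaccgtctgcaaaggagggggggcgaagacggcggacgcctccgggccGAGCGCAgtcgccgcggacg

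The Mt1 window held 3 cores, at bases -23, 3 and 21 from the start, and the Mt2 window held 4, at -223, -128, -50 and 5, where the start base is 1 and the base before it -1. The Slc30a1 window held 2, at -43 and 31, both on the minus strand. At least 1 core occurred in 25.7% of all 32851 promoter windows of the table, at least 3 in 1.97% and at least 4 in 0.517%. Positions depend on the RefSeq start, which was not checked against starts used in these cells, and bases outside the 300 were not searched. A match is only a description of the letters and does not show a bound site.

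Within the eligible cells the score formed 1 broad peak with a long upper side, and the members were its upper tail rather than a separate group. The members with the lowest scores had 166.214, 166.250 and 166.254 per 10000, and the other cells with the highest had 166.141, 166.151 and 166.205. Median scores were 221 in wild-type and 228 in humanized members against 42.2 and 34.5 in the other cells, and the highest were 786 and 784. Mt1 and Mt2 together made up 2.47% and 2.53% of all UMIs in members and 0.525% and 0.470% in the other cells. These values chose the cells and are given as a description, with no test.

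**Figure D1:**
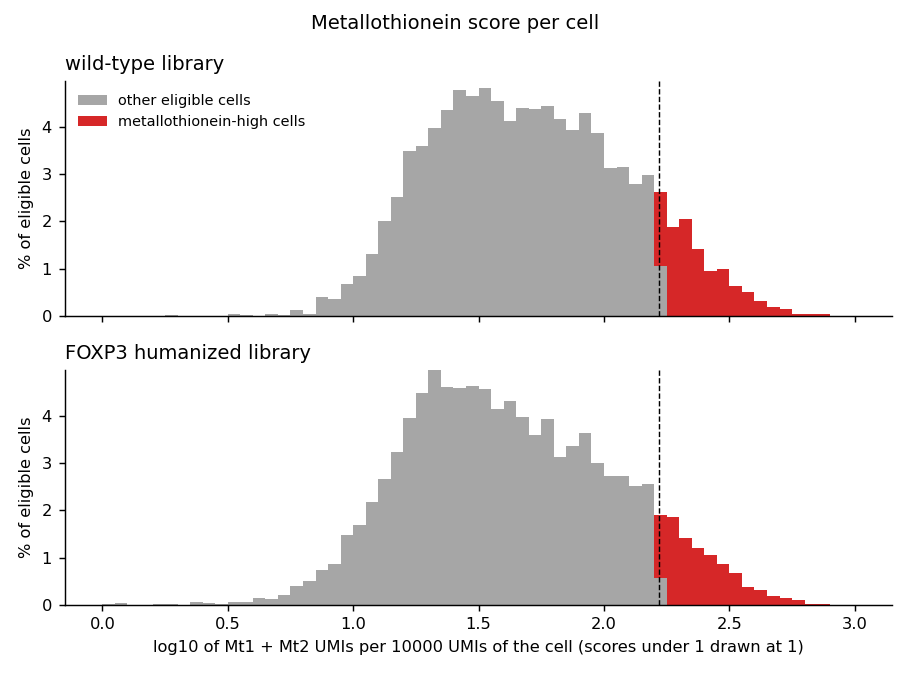
Distribution of the metallothionein score (log10 of Mt1 and Mt2 UMIs per 10000 UMIs of the cell, x axis) as percent of the eligible cells of each library (y axis, stacked bars), with members in red, other cells in grey and the threshold of 166 as a dashed line. No gap separates the members from the other cells in either library.

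Members made up 10.7% of eligible wild-type cells (exact binomial 95% interval 9.95 to 11.5%) and 9.53% of eligible humanized cells (8.95 to 10.1%). The intervals overlap, they cover counting error only, and no test is possible between single libraries. Selecting on Mt1 alone gave 10.5% and 9.69%, and selecting on Mt2 alone 11.8% and 8.73%. The order of the libraries was the same under these selections, while the gap between them was wider with Mt2 than with Mt1.

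Mt1 was the more abundant transcript of the pair. In CPM (counts scaled by TMM, which corrects library sums for composition), Mt1 stood at 17937 and 22498 in wild-type and humanized members and at 3213 and 3392 in the other cells. Mt2 stood at 6351 and 7089 CPM in members and at 1350 and 1287 CPM in the other cells. Both genes were high in members of both libraries, as the rule required. The ratio of Mt1 to Mt2 UMIs was 2.82 and 3.17 in members and 2.38 and 2.64 in the other cells, so it was higher in members of each library and higher in the humanized than in the wild-type sums. A ratio of UMIs does not compare protein.

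The transcripts moved together from cell to cell. After each cell was thinned at random to 5000 UMIs, the Spearman correlation of Mt1 and Mt2 over eligible cells was 0.80 in both libraries, with cells of 1 library sharing its depth and free RNA. Cells chosen on Mt1 alone had a log2 fold of 2.27 for Mt2, which had not chosen them, and cells chosen on Mt2 alone had 2.50 for Mt1. Mt3 was represented by 3 and 5 UMIs in wild-type and humanized members, and Mt4 by 0 and 4 UMIs, so neither reached the 200 UMIs asked of a tested gene.

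Metallothionein transcripts were also compared with cells of another type, since free RNA in droplets gives counts to cells that do not make them. Barcodes under 5000 UMIs with at least 3 UMIs of the leukocyte and T cell genes in the rule numbered 96 and 153 in the respective libraries and had median scores of 7.97 and 7.29 per 10000 at median depths of 1794 and 1574 UMIs. Those scores lay below the medians of the other eligible cells and far below the threshold.

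Members carried fewer UMIs than the other cells, with medians of 13289 and 10838 against 17163 and 12638. By depth, members made up 15.7% of wild-type cells with 5000 to 10000 UMIs and 5.85% of those with 40000 or more. In the humanized library these shares were 11.8% and 1.53%, so the share was lower among deeper cells. At an equal 5000 UMIs per cell, members had a median of 1648 and 1515 genes against 1820 and 1705, so fewer genes were seen in them at matched depth too. The median share of mitochondrial UMIs was 0.133% and 0.105% in members and 0.138% and 0.0922% in the other cells, and the median share of ribosomal protein UMIs was 36.1% and 38.9% against 32.5% and 34.4%. The comparison was therefore repeated with the other cells nearest in total UMIs, and its values stand beside the results they moved.

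Marker lists were read against the label of tumour cells. Transcripts of the MC38 line list (Apobec1, Adam2, Vim, S100a6 and Ctla2a) summed to 18374 and 20824 plain CPM (counts divided by total UMIs, with no TMM) in members and to 23211 and 26048 in the other cells. S100a6, which many cell types express, made up 14767 and 15817 of the members' sums. Apobec1, the APOBEC family cytidine deaminase, was at 299.7 and 63.3 plain CPM in members and at 234 and 90.4 in the other cells, higher in members of one library and lower in members of the other. Adam2 was at 110.3 and 28.7 plain CPM against 114 and 34.9. Of 8 epithelial markers, Krt18, Epcam and Cldn4 were at 0 in members, and the whole list summed to 4.15 and 4.06 plain CPM against 6.34 and 3.07. In members that sum came mostly from Cdh1. The wild-type other cells had 278 UMIs of Cdh1 beside 128 of Krt8, 159 of Krt18 and 95 of Krt19. Wild-type members had 0 UMIs of each of these keratin genes. The name tumour cell is thus the given label, with little epithelial transcript in members or other cells.

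Markers of leukocytes were low, while the fibroblast and pericyte lists had larger sums in members and other cells. In members, 7 of 8 T cell markers were at 0, most of them by the rule. Of 10 macrophage markers, Adgre1, C1qa and Itgam had 0 UMIs in members, but they had only 0 to 8 UMIs in the other cells of a library. Lyz2, Csf1r, C1qb, C1qc and Ly6c2 had 0 to 3 UMIs in the members of a library. Cd14 had 47 and 33 UMIs, which is 4.15 and 2.91 plain CPM against 3.03 and 3.64 in the other cells. The macrophage list summed to 16.5 and 13.9 plain CPM in members against 8.08 and 8.69, mostly from Cd68. Of 8 fibroblast markers Lum and Dpt were at 0, with 0 to 5 UMIs in the other cells of a library, and the list summed to 143 and 195 against 179 and 216 plain CPM. Within the list, Col1a1 and Col1a2 were lower in members of each library, while Pdgfra, a receptor for platelet-derived growth factor, was at 5.39 and 4.94 plain CPM against 3.40 and 2.78. Pdgfra was called higher by the test described next (edgeR log2 fold 0.95 ± 0.19, adjusted p = 2.58e-06). Pdgfrb, its relative, was at 15.9 and 21.1 plain CPM against 12.1 and 14.2 and was not called. Pericyte markers summed to 53.7 and 60.9 plain CPM in members against 66.9 and 73.4, mostly from Cspg4. Erythroid markers summed to 2.30 and 0.530 plain CPM against 0.269 and 0.261. The member sums rest on only 26 and 6 UMIs, 19 and 4 of them from Hba-a1. In the wild-type library the sum was 3.70 plain CPM between the 90th and 95th percentile of the score and 0 in the top 1%.

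For the test, UMIs were summed over the members and over the other cells of each library, and the 4 sums were compared gene by gene with the library as a block. A gene was called when edgeR's quasi-likelihood test gave a Benjamini-Hochberg adjusted p under 0.05 and the gene moved at least 1.5-fold the same way in each library. Of 12521 genes with at least 200 UMIs, Mt1 and Mt2 left out, 499 were called higher in members (3.99%) and 567 lower (4.53%), and the median log2 fold of all genes was -0.01. The 2 libraries left 1 residual degree of freedom, and the fit pooled the spread between libraries fully over genes. The p-values and SEs rest on that pooled spread and not on each gene's own spread between the libraries. Members and other cells of a library come from the same animals, so the p-values do not measure spread between independent tumours. With sums scaled to total UMIs instead of TMM, the median of all genes moved to -0.21 and the calls to 229 higher and 1341 lower, so that 14.6% of calls were higher instead of 46.8%. The medians of the lists described below as higher or lower kept their sign under that scaling.

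**Figure D2:**
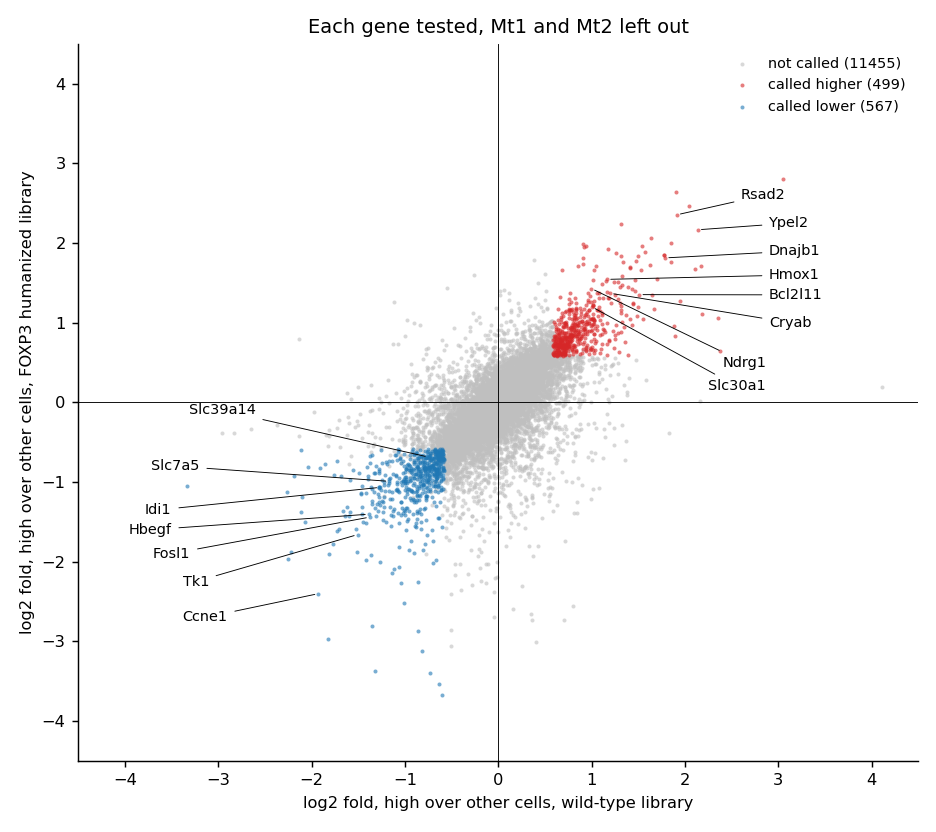
Log2 fold of members over other cells in the wild-type library (x axis) and in the FOXP3 humanized library (y axis), 1 point per tested gene, with genes called higher in red, called lower in blue and others in grey. Dnajb1 lies near 1.8 in each library and Tk1 near -1.51 and -1.66.

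The 15 genes with the largest rise in both libraries held no zinc or copper gene. By the smaller of their log2 folds in the libraries, they were Ypel2, Fam180a, Rsad2, Dnajb1, Gpr146, Atosa, Lenep, Ces1a, Prdm1, Crebrf, Cd68, Mxd1, Rgcc, Bhlhe41 and Chaserr. Ypel2, a member of the Yippee-like family, stood at 5.74 and 5.48 CPM in wild-type and humanized members and at 1.31 and 1.22 CPM in the other cells. Its values hardly differed between libraries, and its members' values were 4.40-fold and 4.49-fold those of the other cells. The fitted log2 fold was 2.15 ± 0.22 (SE, 2 libraries; edgeR adjusted p = 9.26e-22).

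Several of the other leading genes encode regulators of transcription. Crebrf, a regulator of CREB3, was at 40.4 and 34.2 CPM in members and at 13.1 and 10.4 CPM in the other cells (edgeR log2 fold 1.67 ± 0.08, adjusted p = 3.41e-82). Prdm1, which encodes the repressor BLIMP1, was at 7.83 and 9.31 CPM against 2.52 and 2.23 CPM. Mxd1, a MAX partner that opposes MYC, was at 4.70 and 7.55 CPM against 1.69 and 2.20 CPM. Bhlhe41, a repressor of the circadian clock, was at 17.7 and 18.7 CPM against 6.66 and 5.82 CPM. For each of these regulators both member values lay above both values of the other cells. Cd68, a lysosomal membrane glycoprotein used as a macrophage marker, was at 11.9 and 12 CPM against 3.66 and 4.11 CPM, and the part of other cell types in this was not tested.

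Zinc handling was the pathway closest to the genes of the score. Of 27 genes listed as zinc transporters or sensor, 16 had enough UMIs to be tested, and 1 was called higher and 1 lower (6.25% each), with a median log2 fold of -0.22 beside -0.01 for all genes. Slc30a1, whose promoter window is printed above, stood at 7.13 and 8.17 CPM in members and at 3.56 CPM in the other cells of both libraries. Its member values were 2.00-fold and 2.30-fold higher, and the fitted log2 fold was 1.10 ± 0.16 (SE; edgeR adjusted p = 2.31e-10). Slc39a14, the zinc and iron importer ZIP14, stood at 15.7 and 15.2 CPM in members and at 26.4 and 24.5 CPM in the other cells. It fell by 0.72 ± 0.09 on the log2 scale (edgeR adjusted p = 2.93e-13), and lost its call against cells of matched depth, where its log2 fold was -0.63.

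The transcript of the sensor changed little, and its protein and activity were not measured. Mtf1 stood at 18.5 and 15.4 CPM in members and at 14 and 13.7 CPM in the other cells, a log2 fold of 0.30 that was under the 1.5-fold needed. Slc30a4, a vesicular zinc exporter, stood at 11.8 and 12.7 CPM against 7.14 and 8.55 CPM and missed the call in 1 library, at 1.49-fold. The other tested importers and exporters had log2 folds between -0.38 and 0.41, none of them called. Of 12 tested copper genes 0 were called by edgeR or by DESeq2, 3 were higher and 3 lower at an unadjusted p under 0.05 (24.7% and 25.7% of all genes were), and their median log2 fold was -0.03. By DESeq2, a different count test, 2 zinc genes were called higher and 1 lower.

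Iron handling and antioxidant genes gave a mixed picture. Of 14 tested iron genes 3 were called higher and 1 lower, with a median log2 fold of 0.24, and at matched depth 3 higher and 0 lower of 13. At matched depth 296 of all 9358 genes tested were called higher and 299 lower. Hmox1, heme oxygenase 1, which breaks down heme and is on both the iron and the antioxidant list, stood at 91.1 and 64.3 CPM in members and at 40.6 and 22.05 CPM in the other cells. The member values lay above both others, with a fitted log2 fold of 1.34 ± 0.07 (SE; edgeR adjusted p = 2.71e-86), and 10.4% of its member UMIs came from 1 cell. Ftl1, the ferritin light chain, stood at 3394 and 4429 CPM in members and at 1875 and 2262 CPM in the other cells, a log2 fold of 0.91. Steap3, an endosomal ferrireductase, had a log2 fold of 0.90, while Hfe, a regulator of iron uptake, was called lower at -0.71 from 1.83 and 1.45 CPM against 2.86 and 2.50 CPM.

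Of 24 tested NRF2 antioxidant targets 2 were called higher, Hmox1 and the glutathione transferase gene Gstm1, and 2 lower, the cystine transporter gene Slc7a11 and G6pdx of the pentose phosphate pathway. The median log2 fold was -0.01, and at matched depth 1 was called higher and 1 lower of 22. Nqo1, a standard target of this pathway, was at 21.4 and 30.3 CPM in members and at 19.9 and 27.3 CPM in the other cells. Slc7a11 was at 1.83 and 1.45 CPM against 4.43 and 3.02 CPM, low values with a log2 fold of -1.19.

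Chaperone genes were called higher in number. Of 17 tested heat shock genes 9 were called higher (52.9%, beside 3.99% of all genes) and 0 lower, with a median log2 fold of 0.66. Dnajb1, the HSP40 co-chaperone of HSP70, stood at 469 and 592 CPM in members and at 136 and 168 CPM in the other cells. It was 3.45-fold and 3.52-fold higher, with a fitted log2 fold of 1.80 ± 0.05 (SE; edgeR adjusted p = 4.56e-238). Cryab, a small heat shock protein, stood at 1349 and 1522 CPM against 588 and 589 CPM, and Hsph1, an HSP110 exchange factor, at 334 and 344 CPM against 135 and 149 CPM. Bag3, Hspa1b, Dnaja1, Dnajb4, Hspe1 and Hsp90aa1 were the other genes called higher, and the value of Hspa1b is uncertain because its copy Hspa1a is near-identical.

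The mitochondrial chaperonin Hspd1 was at 388 and 402 CPM in members and at 388 and 413 CPM in the other cells, so not every chaperone on the list rose. When the cells in the top 10% of the heat shock score were left out of members and other cells alike, 7 heat shock genes were called higher, and the median of the list was 0.39. That score sums the same genes, so a smaller median follows in part from the choice of cells. In this setting 427 of all 12373 genes tested were called higher. By cell, 28.5% of wild-type members (25.2 to 32.0%) and 27.1% of humanized members (24.2 to 30.1%) lay in the pooled top 10% of the heat shock score at 5000 UMIs per cell, against 7.03% and 8.91% of the other cells. Most members therefore lay outside that 10%.

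Genes of low oxygen and glycolysis were higher in members. Of 30 tested genes 11 were called higher (36.7%) and 0 lower, with a median log2 fold of 0.60, and at an unadjusted p under 0.05 28 were higher and 1 lower in edgeR. Ndrg1, a hypoxia-induced gene, stood at 250 and 389 CPM in members and at 125 and 144 CPM in the other cells (edgeR log2 fold 1.22 ± 0.05, adjusted p = 2.08e-110). Bnip3, a mitophagy receptor, stood at 217 and 285 CPM against 111 and 117 CPM, and the glucose transporter gene Slc2a1 at 107 and 188 CPM against 56.4 and 83.7 CPM. For all of them the humanized members were highest and the members of each library lay above both values of the other cells.

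Car9, carbonic anhydrase 9, stood at 6.17 and 17.6 CPM in members and at 3.84 and 5.54 CPM in the other cells, so its fold was larger in the humanized library, a difference that was not tested. Ldha, lactate dehydrogenase A, stood at 1265 and 1971 CPM against 1152 and 1661 CPM, a log2 fold of 0.19 that was not called, and the lactate exporter gene Slc16a3 had a log2 fold of -0.55 that was not called either. The called genes were thus Egln1, Egln3, Ankrd37, P4ha1, Ero1a, Higd1a and Bnip3l beside Ndrg1, Bnip3, Slc2a1 and Car9, with most glycolytic enzymes uncalled. With total UMI scaling 4 genes of the list were called higher and 1 lower, and without the library block 6 higher. The share of members in the top 10% of this score was 10.6% and 31.6% in the wild-type and humanized library against 3.68% and 12.6% of the other cells.

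**Figure D3:**
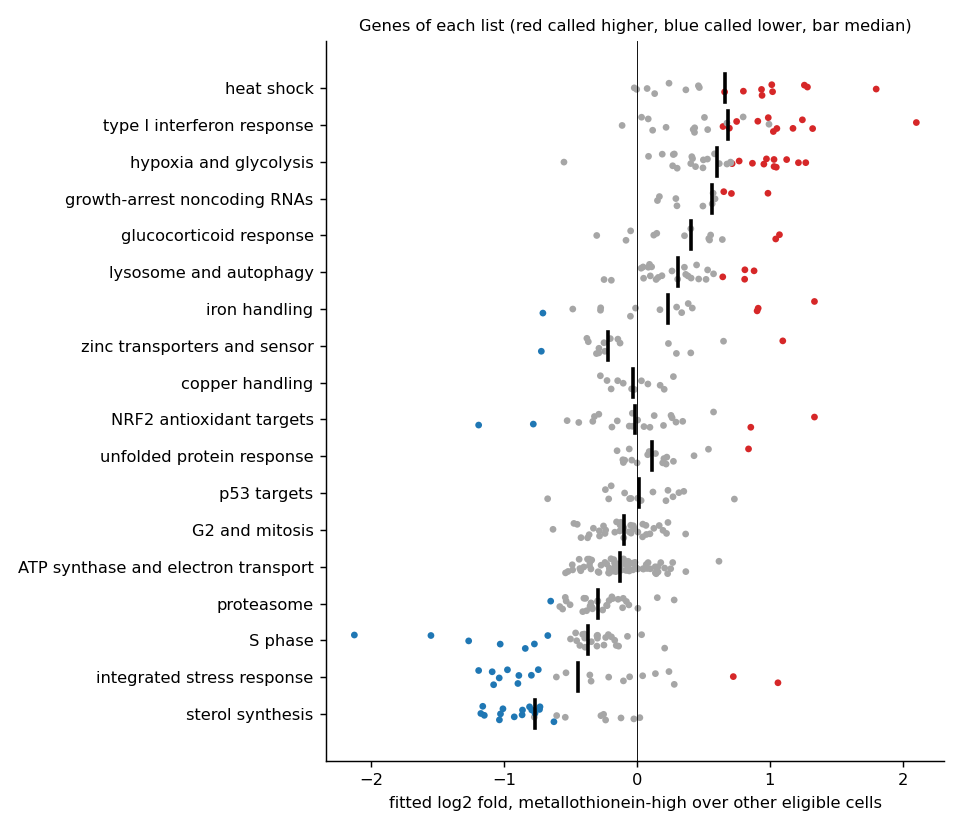
Fitted log2 fold of members over other cells (x axis) for the tested genes of 18 lists (rows), 1 point per gene, with the median of each list as a bar. Heat shock and type I interferon lie furthest right, with medians of 0.66 and 0.69, and sterol synthesis furthest left at -0.77.

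Type I interferon genes were called in number but at low levels. Of 24 tested genes 11 were called higher (45.8%) and 0 lower, with a median log2 fold of 0.69. Rsad2, the antiviral enzyme viperin, stood at 12.6 and 10.0 CPM in members and at 3.35 and 1.96 CPM in the other cells, with a fitted log2 fold of 2.10 ± 0.16 (SE; edgeR adjusted p = 4.75e-39). A single cell held 14.9% of its member UMIs, and the figure for Ifit1 was 14.7%. Isg15, a ubiquitin-like modifier, stood at 21.7 and 19 CPM against 14.1 and 11 CPM.

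The summed type I interferon transcripts followed the score under the threshold and not above it. Abundant genes of the list weigh most in this sum. Rsad2, Ifit3 and Ifit1, at 6.51 to 16.5 CPM in members, are small parts of it. In the wild-type library the sum was 981, 1066, 1098 and 1174 plain CPM in the 4 bands under the threshold, from lowest to highest, and 1034, 1241 and 1079 in the 3 bands above it. In the humanized library it was 913, 954, 959 and 1000.2 plain CPM, then 1097, 887 and 905. The share of members in the top 10% of this list was 15.7% (13.1 to 18.6%) and 13% (10.9 to 15.3%), beside 14.5% and 11.1% of the other cells, and these intervals overlap those of the other cells. In Rsad2 the band from the 90th to the 95th percentile held the highest value, 15.3 and 13.9 plain CPM, with 10.4 and 3.78 in the top 1%. With only genes of at least 1000 UMIs, 6 of 13 interferon genes were called, with cells of matched depth 4 of 15, with total UMI scaling 7, and without the library block 6.

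Genes of sterol synthesis were lower in members. Of 24 tested genes 15 were called lower (62.5%, beside 4.53% of all genes) and 0 higher, with a median log2 fold of -0.77. Idi1, isopentenyl diphosphate isomerase, stood at 9.48 and 20.5 CPM in members and at 22.8 and 42.9 CPM in the other cells, and fell by 1.15 ± 0.09 on the log2 scale (edgeR adjusted p = 1.48e-32). Hmgcs1, the synthase ahead of HMG-CoA reductase, stood at 23 and 38.6 CPM against 43.9 and 82.8 CPM. For Idi1 and Hmgcs1 the humanized members came close to the wild-type other cells, whereas Dhcr7, the reductase that makes cholesterol from its direct precursor, stood at 4.52 and 6.62 CPM against 11.02 and 13.96 CPM. Srebf2, the transcription factor that drives the pathway, was at 64.4 and 86.9 CPM against 61.5 and 88.1 CPM.

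Without the library block 1 sterol gene was called lower. Among cells low in both cell cycle scores 5 were, with a median log2 fold of -0.49. Only 0.708% of wild-type members (5 cells) and 2.53% of humanized members (23 cells) lay in the top 10% of the sterol score, against 6.66% and 14.7% of the other cells. Elovl6, a fatty acid elongase outside the list, was among the 15 genes with the largest fall, at 5.83 and 10.4 CPM against 17.6 and 28.1 CPM.

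The integrated stress response divided. Of 22 tested genes 9 were called lower and 2 higher, with a median log2 fold of -0.44. The genes called higher were the transcription factors Ddit3 (CHOP), at 234 and 259 CPM in members and 116 and 120 CPM in the other cells, and Atf3, at 64.9 and 85.4 CPM against 41.1 and 49.3 CPM. Those called lower included the serine synthesis genes Psat1 and Phgdh, the one-carbon enzyme Mthfd2, the amino acid transporters Slc7a5 and Slc7a11, and Chac1, Trib3, Sesn2 and Stc2. Psat1 stood at 59.3 and 94.7 CPM against 123 and 160 CPM, and Slc7a5 at 25.7 and 34.2 CPM against 57.7 and 68.0 CPM. Atf4, the factor that leads this response, was at 353 and 418 CPM against 328 and 370 CPM, a log2 fold of 0.14. Atf3 lost its call when cells high in heat shock score were left out, with a log2 fold of 0.42, and with total UMI scaling, at 0.52.

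Among genes of DNA synthesis, 7 of 30 were called lower and 0 higher, with a median log2 fold of -0.37, and at an unadjusted p under 0.05 edgeR had 0 higher and 26 lower. Of 38 genes of G2 and mitosis 0 were called by edgeR, with a median of -0.10. DESeq2 called 0 of those 38 as well. At an unadjusted p under 0.05 edgeR had 5 higher and 17 lower, beside 24.7% and 25.7% of all genes. Of these mitotic genes, Nuf2, a kinetochore gene, had the log2 fold of largest size, -0.63. Tk1, thymidine kinase, stood at 27.5 and 27.6 CPM in members and at 78.2 and 87.2 CPM in the other cells (edgeR log2 fold -1.58 ± 0.07, adjusted p = 6.63e-98). Ccne1, cyclin E1, stood at 1.74 and 1.24 CPM against 6.62 and 6.56 CPM, the first of the 15 genes with the largest fall. Pcna, the replication clamp, was at 65.7 and 48.5 CPM against 66.9 and 60.0 CPM and was not called.

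The share of members in the top 10% of the S phase score was 5.38% (3.84 to 7.31%) and 1.98% (1.18 to 3.11%) against 13.2% and 9.91% of the other cells at 5000 UMIs per cell. For the G2 and mitosis score the shares were 8.36% (6.42 to 10.6%) and 6.27% (4.78 to 8.05%) against 12% and 9.97%. Among cells low in S and G2M scores, 1 S phase gene of 26 was called, and Tk1 had a log2 fold of -0.34 and lost its call. Those cells were chosen on the summed S phase and mitotic genes, so fewer calls in these lists follow in part from the choice. With cells of matched depth 4 of 29 S phase genes were called. In that subset of low cell cycle scores, 7 heat shock genes, 9 hypoxia genes and 9 interferon genes were called higher. There, 217 of all 10211 genes tested were called higher and 265 lower.

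The 15 genes with the largest fall were Ccne1, Hdhd3, Tmem40, Fam25a, Thbd, D3Ertd751e, Ung, Tk1, Reck, Pop1, Cth, Elovl6, Adamts5, Map2k3os and Hbegf. Hdhd3, Tmem40, Fam25a, Thbd, D3Ertd751e, Reck and Adamts5 had 1 to 6 UMIs in the members of a library and lost their call by DESeq2. Map2k3os is antisense to Map2k3, and no source used here says whether counting kept the strand, so their reads may be mixed. Hbegf, a ligand of the EGF receptor, stood at 11.1 and 12.8 CPM in members and at 29.1 and 33.9 CPM in the other cells. Fosl1, the AP-1 subunit FRA1, stood at 105 and 95.3 CPM against 272 and 259 CPM, with a fitted log2 fold of -1.41 ± 0.06 (SE; edgeR adjusted p = 2.55e-125). Both were lower in members of each library than in either set of other cells. Of 20 AP-1 and immediate early genes, Egr3 and Ier2 were the other genes called lower and Atf3 the one called higher.

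Autophagy genes and noncoding RNAs were among those called higher. Of 27 lysosome and autophagy genes 4 were, Gabarap, Map1lc3b, Gabarapl1 and the cathepsin gene Ctsb, with a median log2 fold of 0.31. Gabarap, an ATG8-family protein of the autophagosome, stood at 858 and 1107 CPM in members and at 476 and 588 CPM in the other cells. Neat1, the long noncoding RNA of paraspeckles, stood at 313 and 245 CPM against 162 and 120 CPM, with a log2 fold of 0.99. Neat1, Epb41l4aos and Zfas1 were the 3 of 11 growth-arrest noncoding RNAs called, and 0 of them were called among cells low in cell cycle scores and 1 at matched depth. With total UMI scaling 2 autophagy genes and 1 of these noncoding RNAs were called.

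Among glucocorticoid-responsive genes, 2 of 13 were called higher. Cebpd was at 40.01 and 73.8 CPM in members against 20.4 and 33.0 CPM, and Ddit4 at 61.3 and 72.4 CPM against 31.7 and 32.9 CPM. Tsc22d3 and Fkbp5, which respond strongly to glucocorticoids, had log2 folds of 0.15 and -0.08 and were not called. Of 20 apoptosis genes Bcl2l11 (BIM) was called higher, at 21.1 and 17.4 CPM against 7.42 and 6.80 CPM, and genes called lower included Bcl2 and Bad. Of 18 NF-kappaB genes 0 were called by edgeR or DESeq2, with 3 higher and 5 lower at an unadjusted p under 0.05. Of 16 p53 targets 0 were called by either tool, with 5 higher and 3 lower at an unadjusted p under 0.05, beside 24.7% and 25.7% of all genes. At matched depth 1 apoptosis gene was called higher and 1 lower of 16.

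In the proteasome and electron transport lists few genes reached 1.5-fold, and most had small negative folds. Of 31 proteasome genes 1 was called, Psmd6, at a log2 fold of -0.65 (-0.62 and not called at matched depth), while 2 were higher and 25 lower at an unadjusted p under 0.05 in edgeR, with a median of -0.30. From the lowest to the top band of the score the proteasome sum went from 8556 to 5465 plain CPM in the wild-type library and from 9046 to 5331 in the humanized one. Of 69 ATP synthase and electron transport genes 0 were called by edgeR, with a median of -0.13. DESeq2 called 1 of the latter higher, and 12 were higher and 36 lower at an unadjusted p under 0.05 in edgeR. The share of cells in the top 10% of that score was 3.97% and 0.550% of members against 18.1% and 6.93% of the other cells. Of 18 unfolded protein response genes Dnajb9 was called higher, and of 19 collagen and matrix genes Timp1 and Mmp9 lower. On the list of interferon gamma and MHC class I genes, Gbp6 and B2m were called higher and H2-Aa lower, out of 27, and at matched depth 0 of 18 were called. The invasion-linked factor gene Snai2 and Cdh1 were called higher among 13 identity genes, with Cdh1, E-cadherin, at only 3.83 and 4.24 CPM in members.

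In the 10 genes followed by band of the score, levels already differed between bands under the threshold. In plain CPM, Dnajb1 rose from 93.2 in the lowest 25% of scores to 166 between the 50th and 75th percentile, 408 just above the threshold and 764 in the top 1% of the wild-type library. In the humanized library it went through 106, 201, 424 and 719. Fosl1 went from 410 through 272 and 120 to 56.8 in the wild-type library, and from 326 through 205 and 90.5 to 50.1 in the humanized one. Each series ran in 1 direction across the bands in both libraries.

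Cryab flattened earlier, from 364 and 346 plain CPM in the lowest 25% to 1280 and 1264 just above the threshold and 1593 and 1543 in the top 1%. Slc30a1 had no such steady course. It went from 2.86 and 2.89 plain CPM in the lowest 25% to 10.6 and 7.31 between the 95th and 99th percentile, and stood at 4.64 and 5.67 in the top 1%, where few UMIs were available. Across the same bands the summed zinc list went from 260 and 240 plain CPM to 183 and 167.

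**Figure D4:**
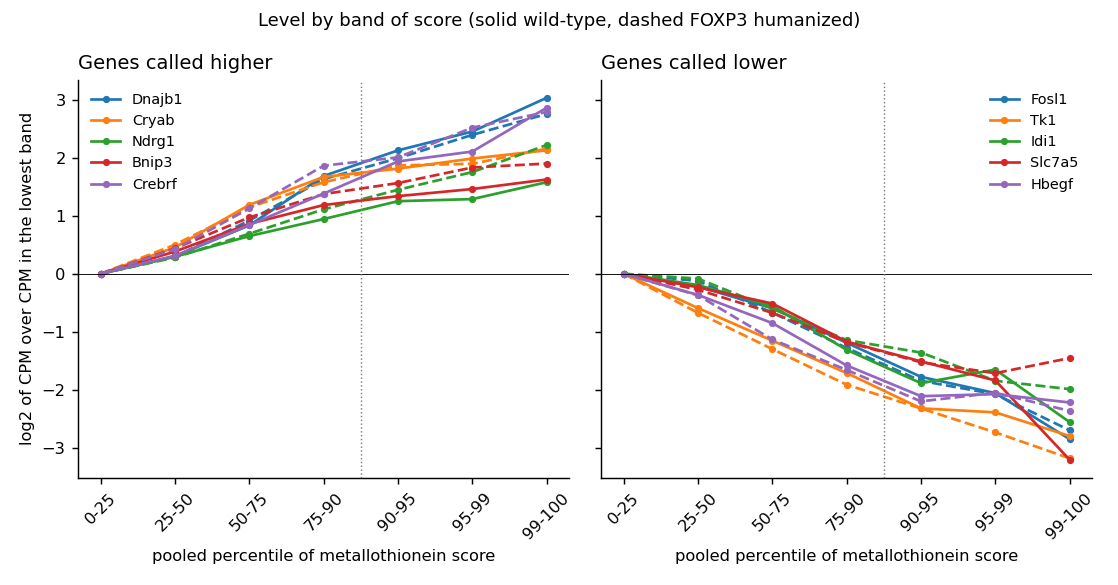
Level of 10 genes by band of the metallothionein score (x axis, pooled percentiles), as log2 of the level over that in the lowest band (y axis), solid for the wild-type and dashed for the FOXP3 humanized library, with the member threshold dotted. The plotted genes called higher climb and those called lower fall from the lowest bands on, well before the threshold.

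The heat shock, hypoxia and type I interferon scores were also counted together in each cell, with ties at a cut counted in the top 10%. Of wild-type members 55.1% (51.3 to 58.8%) were in the top 10% of none of these 3 scores, and of humanized members 43.6% (40.3 to 46.9%). Among the other cells the shares were 77.2% and 71.7%. Cells in the top 10% of 2 scores made up 7.65% and 12.1% of members against 2.29% and 3.85% of the other cells. Those in the top 10% of all 3 made up 1.13% and 1.54% of members against 0.102% and 0.255%. The share in the top 10% of the iron score was 26.5% and 18.9% of members against 11.6% and 6.64% of the other cells, and that of the proteasome score 0.283% and 0.550% against 7.95% and 14%.

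**Figure D5:**
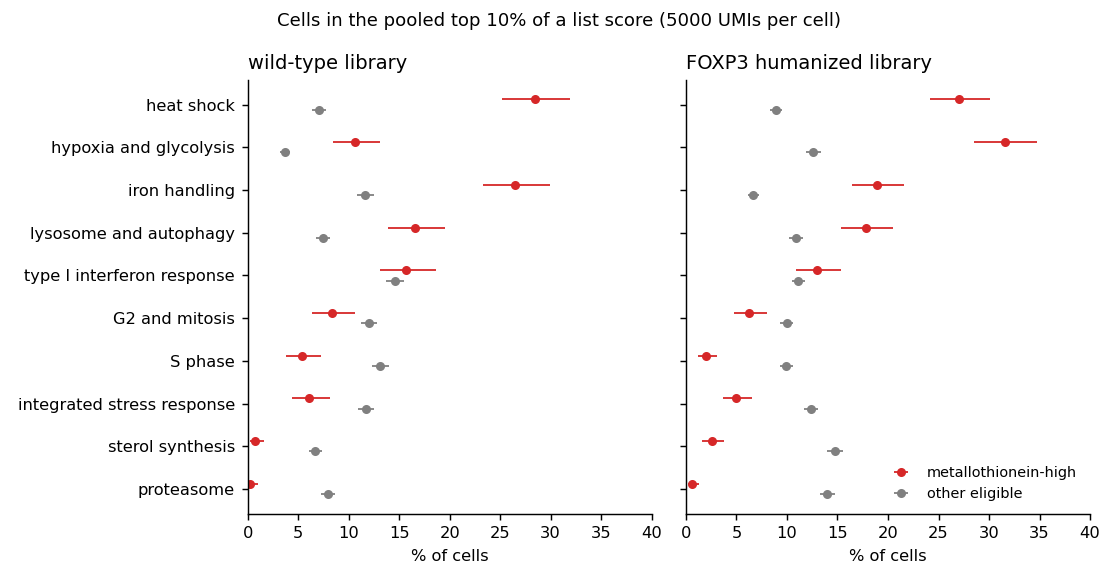
Percent of cells in the pooled top 10% of each list score at 5000 UMIs per cell (x axis), for members in red and other cells in grey, with exact binomial 95% intervals that cover counting error only. Heat shock separates the sets in both libraries, at 28.5% and 27.1% of members, whereas the type I interferon intervals overlap. Cells tied at a cut are included in the top 10%.

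Between genotypes the members were compared by size alone, since each genotype had 1 library. Named genes that were furthest apart included Col1a1, at 1.65 CPM in wild-type and 9.93 CPM in humanized members, a log2 ratio of 2.59 (exact 95% interval 1.87 to 3.38) with 29.6% of its member UMIs in 1 cell. Fam180a was at 9.39 and 29.0 CPM, a log2 ratio of 1.62 (1.30 to 1.96), and Car9 at a log2 ratio of 1.51 (1.10 to 1.93). Ccl2, a monocyte-attracting chemokine, was at 51.1 and 140 CPM, a log2 ratio of 1.45 (1.31 to 1.59). Other genes were lower in humanized members. Gbp5 had a log2 ratio of -1.37 (-2.40 to -0.44), from 40 and 13 UMIs. Of the MC38 line list, Apobec1 was at 299.7 and 63.3 and Adam2 at 110.3 and 28.7 plain CPM.

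The other cells differed between libraries in the same direction for these genes. Their log2 ratios were 0.86 for Col1a1, 1.20 for Fam180a, 0.53 for Car9, 0.92 for Ccl2 and -0.66 for Gbp5. In these cells Apobec1 was at 234 and 90.4 and Adam2 at 114 and 34.9 plain CPM. Mt1 had a log2 ratio of 0.33 in members and 0.08 in the other cells, and the difference between members and other cells was not tested for any gene across genotypes.

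The promoter windows of the genes called in either direction held the metal response core about as often as those of all tested genes. At least 1 core stood in 34.6% of the 410 windows of genes called higher, in 33.4% of the 497 windows of genes called lower and in 35.7% of the 11972 windows of tested genes. At least 3 stood in 3.41%, 2.62% and 3.22%. Of 124 named genes 90 matched a window, and beside Mt1 and Mt2 those with a window of 3 cores were Bcl2l11, Map1lc3b, Mdm2 and Slc30a4. The windows of Dnajb1 held at most 1 core.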

How the data were processed

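Droplet-based single-cell cDNA libraries of MC38 tumours, 1 per genotype, were analysed. The matrices deposited by the authors hold raw UMI counts per gene and cell, written by PISA 1.0 per the file headers. The genome build is GRCm39 per the submitters' processing notes, with aligner, annotation and cell calling not given in the sources used here. Gene symbols of both libraries were joined (26172, of which 22649 in both). Cells were filtered by the rule only, which left 126642334 wild-type and 137866945 humanized UMIs in eligible cells, 11327706 and 11328533 of them in members. Doublets were not called. Cell names are running numbers, not barcode sequences, so 1551 names found in both libraries do not show shared cells, and an alternative left them out.

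UMIs were summed per library and cell set and tested with edgeR 4.0.16 in R 4.3.3 (TMM, quasi-likelihood, library as block, Benjamini-Hochberg over all genes with at least 200 UMIs). The pairing by library comes from the design, since members and other cells are drawn from the same library. DESeq2 1.42.0 was an alternative. Exact binomial and conditional 95% intervals cover counting error only. Python 3.11.15 with NumPy 2.4.6 and SciPy 1.17.1 did the rest, with random thinning to 5000 UMIs for scores per cell. The calling of genes was tested on simulated data. Named genes were Mt1, Mt2, tested zinc genes, the 15 highest and 15 lowest called genes by the smaller library fold (ribosomal protein, mitochondrial, histone, sex-linked and predicted genes left out) and up to 3 genes of largest fitted fold per list. Others were singled out after their values were seen. The members and lists were chosen with earlier results of these data known. Promoter windows are RefSeq on GRCm38.p6, matched by symbol, and no coordinates of the files' build were used. Some genes are not reported here.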

Additional observations from a re-analysis of the deposited data

How the results depend on the processing

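The 499 genes called higher and 567 lower stayed within 1.5 times under 11 of 16 alternatives that kept both libraries, with counts of 350 to 549 and 391 to 716. The lower count was 353 with DESeq2, whose higher count was 444, and total UMI scaling gave 229 and 1341. Without the library block that pairs members with other cells (no replicate block), 264 and 242 were called. Against other cells nearest in total UMIs, 296 and 299 of 9358 genes were called. Of 2 alternatives added after the data were seen, the one with cells low in S and G2M scores gave 217 and 265, from fewer cells and genes. With 1 library alone, where only the 1.5-fold condition applied and no test was possible, the counts were 883 to 945 higher and 1008 to 1444 lower. The share of members was 5.19% and 4.88% at the 95th percentile, by construction, and 11.8% and 8.73% on Mt2 alone; the cause was not tested for the other changes. Over the named genes and these settings, 1957 values kept their call or lack of one, 59 gained a call and 104 lost one. Sign was counted only for genes called in the main comparison, of which 0 changed sign. Uncalled genes could change sign, as Pecam1 did, from 0.13 to -0.07 with total UMI scaling. The limit of at most 10% mitochondrial UMIs removed no eligible cell and so tested nothing. Depth limits genes with few UMIs in members, such as Tmem40 and Fam25a.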
